A study of Mus musculus with 4 samples.

Results

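The transcripts of 10 genes that cells use to restrain or carry out Wnt signaling (Axin2, Lgr4, Lgr5, Lef1, Tcf7, Nkd1, Notum, Rnf43, Znrf3 and Sp5) were followed in sorted mouse mammary tumor cells with and without radiation. The genes were taken by symbol from a count table of 54532 genes, and all 10 were found. The tumor cells carried the MMTV-PyMT transgene, in which the mouse mammary tumor virus promoter, active mainly in mammary epithelium, drives the polyoma middle T antigen. They also carried an mCherry reporter of Dll1, a Notch ligand gene, on the strain C57BL/6. Tumors arose after MFP injection of PyMT-Dll1+ cells, an abbreviation the labels do not expand, and all 4 libraries share this background. The 2 unirradiated libraries are from tumors that were given no radiation, and the 2 irradiated libraries are from tumors given targeted radiation at day 30. Neither the age of the animals, the dose nor the interval from radiation to collection is in the sources used here. Tumor cells were enriched by a sort on CD45, CD31 and TER119 (markers of leukocytes, endothelium and red cells), mCherry-positive cells were taken from these, and their poly(A) RNA was sequenced. Whether the 2 libraries of a group are from different animals is not stated, so each p-value reflects spread between libraries that may be technical replicates.

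In canonical Wnt signaling, ligand bound to Frizzled receptors and their Lrp co-receptors stops the destruction complex from degrading beta-catenin, which then enters the nucleus and activates genes together with Tcf and Lef proteins. Several of the activated genes feed back on the pathway. Axin2 rebuilds the destruction complex, Nkd1 restrains Dishevelled, Notum removes the lipid from secreted Wnt, and the ubiquitin ligases Rnf43 and Znrf3 clear Frizzled from the cell surface. R-spondins bound to Lgr4 or Lgr5 in turn remove Rnf43 and Znrf3. Lef1 and Tcf7 are DNA-binding partners of beta-catenin, and Sp5 is a zinc finger factor gene induced by it. In the mammary gland Wnt signaling is known for its part in basal and stem cell maintenance.

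Tcf and Lef proteins bind DNA sites with a CTTTG core, so the 250 bases upstream of the RefSeq starts of the members (GRCm38.p6, the assembly that mm10 names) were searched on both strands for this core followed by AA, by AT, by TA or by TT (each 7 bases long). No match overlapped another. RefSeq windows were found for 7 of the 10 members, 12 windows in all, and not for Lgr5, Znrf3 and Notum. At least 1 of the motifs was in 2 of the 12 windows, against 14.8% of all 32851 windows of that length. They are shown here for Axin2, the member with the smallest p below, and for Sp5, whose window had 2 motifs while its transcript was nearly absent. Both windows lie on the plus strand, at chr11:108920099-108920348 for Axin2 and chr2:70474673-70474922 for Sp5, and end 1 base before the start of the gene. Motifs are in capitals.
Axin2: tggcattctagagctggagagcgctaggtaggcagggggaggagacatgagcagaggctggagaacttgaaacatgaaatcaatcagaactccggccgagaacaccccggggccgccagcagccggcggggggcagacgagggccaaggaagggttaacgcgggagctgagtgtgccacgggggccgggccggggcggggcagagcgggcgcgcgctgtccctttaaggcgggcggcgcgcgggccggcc
Sp5: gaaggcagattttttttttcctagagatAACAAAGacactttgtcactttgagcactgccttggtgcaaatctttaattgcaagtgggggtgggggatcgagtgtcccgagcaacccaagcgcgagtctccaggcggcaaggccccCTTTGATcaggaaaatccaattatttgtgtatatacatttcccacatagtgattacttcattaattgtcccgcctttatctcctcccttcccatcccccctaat
In the Sp5 window AACAAAG, the reverse complement of CTTTGTT, begins 222 bases before the start, and CTTTGAT begins 104 bases before it. The Axin2 window held none of the 4 motifs, which says nothing of sites elsewhere in that gene. The remaining motif, TACAAAG, lay upstream of an internal Lef1 start. CTTTGAT in either orientation was in 3.21% of all windows and CTTTGTT in 5.03%.

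Depth and identity of the libraries set what can be read. Summed counts were 16811888 to 20817997 per library. The unirradiated libraries lay close together, with a biological coefficient of variation of 5.93% across genes, against 39.8% between the irradiated ones. Epithelial markers dominated all 4 libraries: the 10 luminal and general epithelial genes summed to 17596 and 16303 CPM (counts scaled to library size) in unirradiated 1 and 2, and to 15876 and 14100 CPM in irradiated 1 and 2. Irradiated 2 stood apart by markers of other cells. The 10 fibroblast genes summed to 599 and 617 CPM unirradiated, 798 CPM in irradiated 1 and 5950 CPM in irradiated 2. For 10 endothelial genes the sums were 37.0, 33.5, 57.4 and 860 CPM, for 10 macrophage genes 30.0, 27.8, 90.0 and 667 CPM, and for 10 T cell genes 5.20, 4.66, 11.9 and 93.0 CPM. The sum of 7 basal genes was highest in irradiated 1, at 728 CPM against 490, 475 and 460 CPM. That height came from the keratins Krt5, Krt14 (228 CPM against 120, 113 and 108 CPM) and Krt17, while Myh11 and Oxtr lay below in both irradiated libraries and Trp63 and Acta2 overlapped. The codes that open the sample titles divide the libraries just as treatment does, so radiation and any batch behind these codes cannot be told apart. The sort gene Dll1 itself had 130 and 129 CPM unirradiated and 146 and 80.2 CPM irradiated. In bulk RNA, fewer cells of a type and less RNA per cell cannot be told apart.

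**Figure D1:**
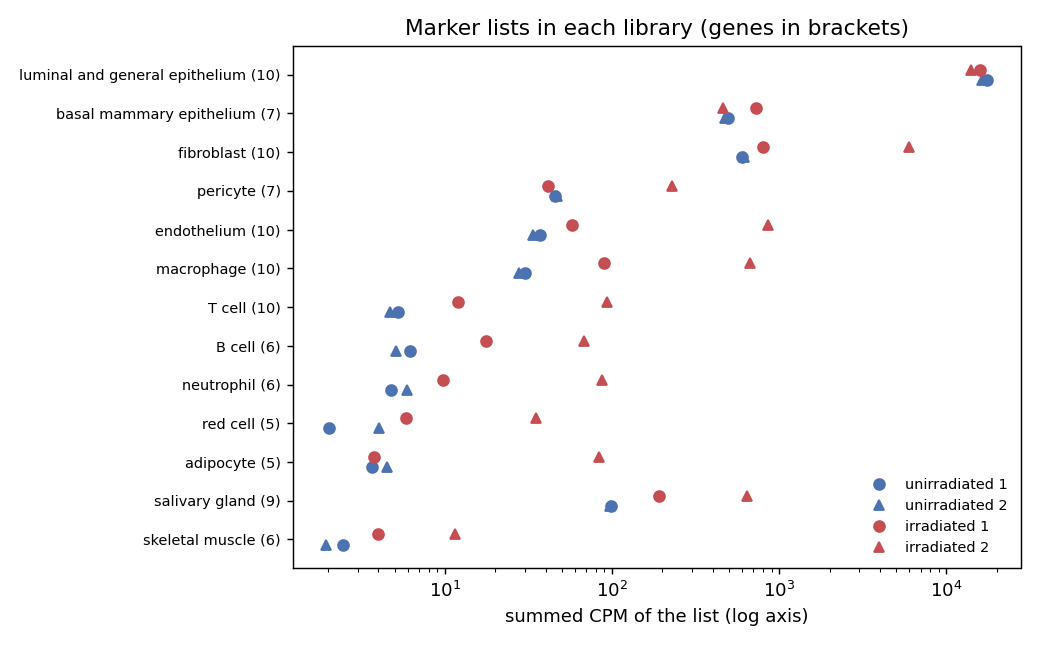
Summed CPM (log axis) of each marker list in the 4 libraries, with the number of genes in brackets, blue for unirradiated and red for irradiated, circles for library 1 and triangles for library 2. Irradiated 2 lies furthest right for fibroblast, endothelial and leukocyte lists (5950 CPM for fibroblast genes against 599 to 798 CPM), and irradiated 1 for the basal sum, through 3 keratins.

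Without radiation the members covered a wide range of levels. Per length, in CPM per kilobase, Rnf43 was highest at 17.3 ± 0.994 (SD, n = 2 here and below), followed by Lgr4 at 8.79 ± 0.363 and Tcf7 at 3.42 ± 0.405. Znrf3 came next at 2.68 ± 0.313 and Axin2 at 0.685 ± 0.0914. The low end held Nkd1 at 0.261 ± 0.0703, Lgr5 at 0.241 ± 0.0567, Notum at 0.143 ± 0.00500 and Lef1 at 0.0731 ± 0.0105 CPM per kilobase. Sp5 was last, at 0.0140 ± 0.0199. The ranges of Nkd1 and Lgr5 overlapped, and those of the other neighbors in this order did not. The ligase Rnf43 and the receptor Lgr4 were each well above the other member of their pair. The Lgr4 level per length was 30.4 and 45.0 times that of Lgr5 in the unirradiated libraries and 53.3 and 38.9 times in the irradiated ones. Rnf43 was 6.77 and 6.22 times Znrf3 unirradiated, and 6.10 and 5.63 times irradiated. Irradiated, the first 6 places were held by the same genes in the same order. Axin2 was then at 1.76 ± 0.202 CPM per kilobase, still below Znrf3 at 2.47 ± 0.238, and the ranges of Notum, Lef1 and Lgr5, and of Nkd1 and Notum, overlapped their neighbor's.

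**Figure D2:**
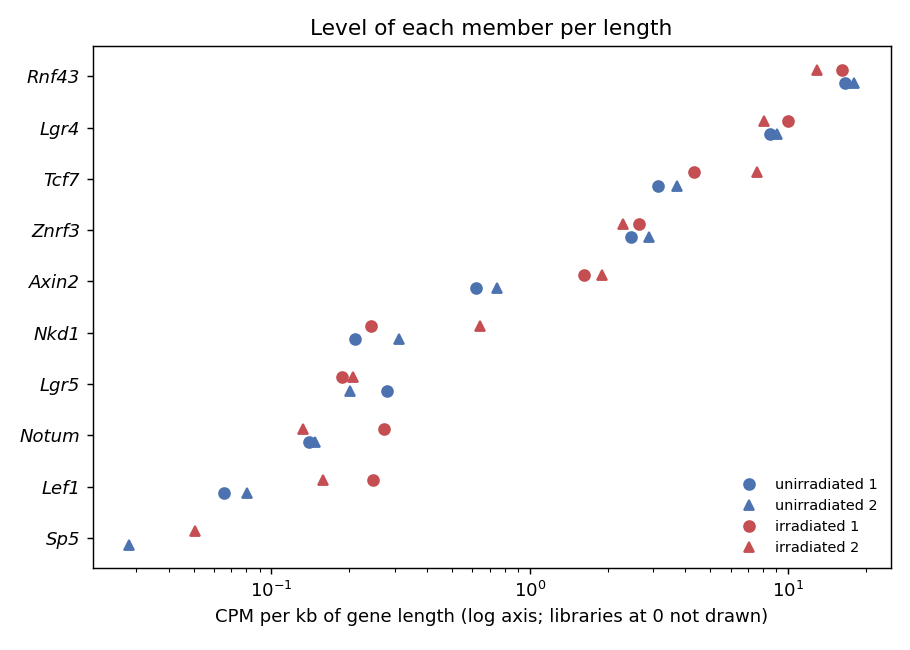
Level of each member in CPM per kilobase of gene length (log axis), 1 point per library, colors and shapes as in the plot of marker lists. Rnf43 and Lgr4 are highest in all 4 libraries. The Axin2, Lef1 and Tcf7 points of the irradiated libraries lie to the right of the unirradiated ones, and those of Rnf43 to the left.

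The comparison asked how the transcripts differed after radiation. On average the irradiated libraries had 2.57 times the Axin2 and 2.76 times the Lef1 of the unirradiated ones, 1.74 times the Tcf7 and 0.839 times the Rnf43, and the groups overlapped for Lgr4, Lgr5, Nkd1 and Znrf3. No difference passed when adjusted over the whole table: edgeR's quasi-likelihood test with Benjamini-Hochberg adjustment called 0 of 8 tested members in either direction, with 0% of 15993 genes called higher and 0% lower. At an unadjusted p under 0.05 it held 2 members higher, Axin2 and Lef1, and 0 lower, where 6.82% of all tested genes were higher and 2.44% lower. DESeq2 called 1 member, Axin2, higher. It called 2.76% higher and 0.306% lower of the 16326 genes to which it gave an adjusted p. Limma-voom called none in either direction. The edgeR and DESeq2 fits share the dispersion of a gene between the groups, although the spread was 5.93% unirradiated and 39.8% irradiated. Their SE and p-values rest on this shared value. For 3 of 8 members the irradiated pair lay wholly above the unirradiated pair, for 1 wholly below, and for 4 the groups overlapped, against 20.3%, 20.0% and 59.6% of all tested genes. All 8 tested members passed the minimum level in each of the 4 libraries. Notum and Sp5 did not pass the filter and are given as values. The median log2 fold change of the 8 was 0.40, against 0.00 over all tested genes. By library, the median log2 difference of the 8 from the unirradiated mean was 0.08 in irradiated 1 and 0.44 in irradiated 2. Irradiated 2 is the library with high markers of other cells, whose part in this was not tested.

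Axin2 (ENSMUSG00000000142) encodes a scaffold of the destruction complex and is widely used as a readout of canonical Wnt signaling. Its level was 3.42 CPM in unirradiated 1, 4.13 CPM in unirradiated 2, 8.93 CPM in irradiated 1 and 10.5 CPM in irradiated 2. Both irradiated libraries were more than 2 times either unirradiated one. The log2 fold change was 1.36 (SE 0.28, 2.57-fold), with an edgeR p of 0.00445 and an adjusted p of 0.489, and with an adjusted p of 0.0259 by DESeq2. Of all tested genes, 119 had a smaller edgeR p. Without irradiated 2, the library with high fibroblast, endothelial and leukocyte markers, the log2 fold change was 1.24 (SE 0.23), and without irradiated 1 it was 1.47 (SE 0.23). Such fits, here and below, assume that the lone irradiated library varies like the unirradiated pair. The fibroblast marker sum was 798 CPM in irradiated 1 and 5950 CPM in irradiated 2, and the basal sum, with its 3 keratins, was 728 and 460 CPM. The part of fibroblasts, basal cells and the other cell types in the Axin2 difference was not tested. An antisense gene, Gm11670, covers 3.8% of the exon bases of Axin2 and had 5 counts over all libraries. The kit keeps no strand, so reads in such shared bases cannot be assigned.

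The other feedback genes of the cytoplasm and the cell exterior were scarce. Nkd1 (ENSMUSG00000031661), which encodes a Dishevelled-binding inhibitor, was at 0.962 and 1.42 CPM unirradiated, 1.11 CPM in irradiated 1 and 2.93 CPM in irradiated 2. Irradiated 2 alone stood out, and the groups overlapped. Its log2 fold change was 0.76 (SE 0.62, edgeR adjusted p = 0.785), and -0.10 (SE 0.58) without irradiated 2. The difference in Nkd1 therefore rested on the library with the high markers of other cells, whose part in it was not tested. Notum (ENSMUSG00000042988), the Wnt deacylase gene, had 7 and 6 counts unirradiated and 13 and 6 irradiated, or 0.337, 0.354, 0.656 and 0.320 CPM. The exact Poisson 95% intervals, which cover counting error only, were 0.135 to 0.694 and 0.130 to 0.770 CPM unirradiated, 0.349 to 1.12 CPM in irradiated 1 and 0.117 to 0.696 CPM in irradiated 2. All 4 overlapped, and no difference was detectable at this depth. The antisense gene Notumos, with 2 counts, covers 29.4% of the Notum exon bases.

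Of the ligases that clear Frizzled, Rnf43 (ENSMUSG00000034177) was the most abundant member. It was at 109 and 118 CPM unirradiated and at 106 and 85.1 CPM irradiated. The irradiated libraries lay below, but irradiated 1 by little. The log2 fold change was -0.25 (SE 0.14, edgeR adjusted p = 0.659), with -0.12 (SE 0.10) without irradiated 2 and -0.43 (SE 0.10) without irradiated 1. The summed epithelial markers were also lowest in irradiated 2, but this did not hold for each gene. Krt19 was highest there (794 CPM against 547 to 596 CPM). Krt7 lay above in both irradiated libraries (292 and 257 CPM against 219 and 212 CPM). Csn3 and Elf5 were lowest in irradiated 1, and Csn3, a milk protein gene, had the highest CPM of the list (4895 to 7108 CPM). The part of cell makeup in the Rnf43 difference was not tested. Znrf3 (ENSMUSG00000041961), its paralog, was at 19.4 and 22.9 CPM unirradiated and at 20.8 and 18.2 CPM irradiated. These groups overlapped, with a log2 fold change of -0.12 (SE 0.17, edgeR adjusted p = 0.894).

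The R-spondin receptors Lgr4 and Lgr5 overlapped between groups. Lgr4 (ENSMUSG00000050199) was at 50.2 and 53.3 CPM unirradiated, and the irradiated libraries lay on either side of them at 58.6 and 47.5 CPM. Its log2 fold change was 0.04 (SE 0.14, edgeR adjusted p = 0.966). Lgr5 (ENSMUSG00000020140), a marker of intestinal and other stem cells, was at 2.89 and 2.06 CPM unirradiated and at 1.92 and 2.13 CPM irradiated. The high value was unirradiated 1, and the remaining 3 libraries lay between 1.92 and 2.13 CPM. The log2 fold change was -0.29 (SE 0.39, edgeR adjusted p = 0.882). Lgr6, their paralog and no member of the group, was the most abundant of the receptor transcripts, at 99.1 and 98.7 CPM unirradiated and at 84.8 and 79.9 CPM irradiated (log2 fold change -0.26, SE 0.10, edgeR adjusted p = 0.525). For Lgr6 both irradiated libraries lay below both unirradiated ones.

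Among the nuclear effectors, Lef1 (ENSMUSG00000027985) was at 0.577 and 0.708 CPM unirradiated, 2.17 CPM in irradiated 1 and 1.39 CPM in irradiated 2. The groups did not overlap, and irradiated 1 was the highest library. These values stand for 12, 12, 43 and 26 counts. The exact Poisson 95% intervals were 0.298 to 1.01 and 0.366 to 1.24 CPM unirradiated, 1.57 to 2.92 CPM in irradiated 1 and 0.905 to 2.03 CPM in irradiated 2, so that of irradiated 1 lay above both unirradiated intervals and that of irradiated 2 overlapped them. The log2 fold change was 1.46 (SE 0.50, 2.76-fold, edgeR adjusted p = 0.503), with 1.74 (SE 0.56) without irradiated 2 and 1.10 (SE 0.67) without irradiated 1. T cells also express Lef1. The T cell list was at 11.9 CPM in irradiated 1, where Lef1 was highest, and at 93.0 CPM in irradiated 2. The basal sum was highest in irradiated 1, at 728 CPM, through 3 of its 7 genes. The part of T cells and of basal cells in the Lef1 difference was not tested. Of the Lef1 exon bases 13.7% also belong to the antisense gene Gm43352, which had 1 count.

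Tcf7 (ENSMUSG00000000782), which encodes the T cell factor Tcf1, was at 8.23 and 9.73 CPM unirradiated, 11.3 CPM in irradiated 1 and 19.9 CPM in irradiated 2. The groups did not overlap, and most of the difference was in irradiated 2. The log2 fold change was 0.80 (SE 0.33, 1.74-fold, edgeR adjusted p = 0.547), and 0.33 (SE 0.18) without irradiated 2. T cells also express Tcf7. Of the 10 T cell markers 8 were wholly above in the irradiated pair and 0 below. Only 7 of the 10 passed the filter, so 20.3% and 20.0% of all tested genes are no like measure. Among these 7, Cd3g, Il7r, Cd4, Cd2 and Cd8a passed only through the irradiated libraries. Both unirradiated values of each were under 0.515 CPM, the filter's minimum level. Such genes could hardly lie other than above, and no conclusion is drawn from the count. The sum of the 10 was 4.66 to 5.20 CPM unirradiated and 11.9 to 93.0 CPM irradiated. Cd3d had 0 counts in unirradiated 2 and irradiated 1. Cd28, among the 8, had 0 counts in unirradiated 2 and 3 counts in both unirradiated 1 and irradiated 1. The part of these cells in the Tcf7 difference was not tested. Per length Tcf7 was 47.7 and 46.0 times Lef1 there, 17.5 times in irradiated 1 and 48.2 times in irradiated 2.

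Sp5 (ENSMUSG00000075304), the target gene whose upstream window with 2 motifs is given above, had 0 and 1 counts unirradiated and 0 and 2 irradiated. All are under a floor of 3 counts (0.144 to 0.177 CPM in these libraries), taken as the one-sided 95% limit for a count of 0. No level or difference of Sp5 was therefore detectable.

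**Figure D3:**
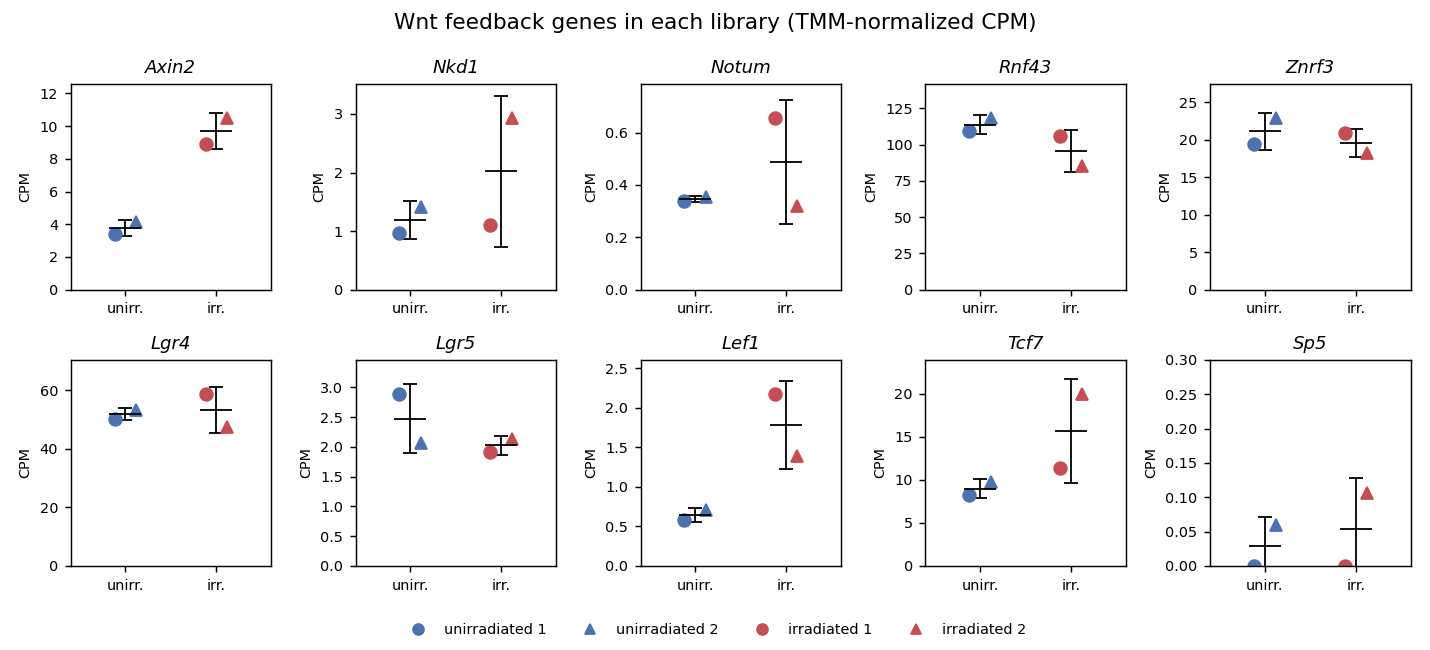
CPM of the 10 members in the unirradiated (unirr.) and irradiated (irr.) libraries, with circles for library 1, triangles for library 2, and the mean and SD in black, each panel on its own axis from 0. The groups are apart for Axin2, Lef1, Tcf7 and Rnf43, and for Axin2 the irradiated libraries (8.93 and 10.5 CPM) are far above the unirradiated ones (3.42 and 4.13 CPM).

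In mm10, 5 of the members lie on chromosome 11: Znrf3 from 5276324 to 5444847, Tcf7 from 52252371 to 52283014, Rnf43 from 87662722 to 87735539, Axin2 from 108920349 to 108950783 and Notum from 120653788 to 120661175. They are far apart, and among them Axin2 and Tcf7 lay higher and Rnf43 lower. On chromosome 2 Sp5 spans 70474923 to 70477729 and Lgr4 109917647 to 110014257. Lef1 is on chromosome 3 from 131110471 to 131224356, Nkd1 on chromosome 8 from 88521354 to 88594884 and Lgr5 on chromosome 10 from 115450311 to 115587780.

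The rest of the pathway was read from 93 genes in 7 lists, of which 75 were tested. The edgeR test called 0 of the 75 higher and 0 lower (8 and 4 at an unadjusted p under 0.05), DESeq2 called 2 higher and 1 lower, and 26 lay wholly above and 8 wholly below in the irradiated pair, with a median log2 fold change of 0.09. Over all tested genes the same shares were 6.82% and 2.44% at the unadjusted p, and 20.3% above and 20.0% below. By DESeq2 they were 2.76% and 0.306% of the 16326 genes to which it gave an adjusted p. These shares are the background of each single list as well. The 26 above, and the median, include the ligand gene Wnt10b, which passed the filter only through the irradiated libraries. No conclusion is drawn from its place among the 26. The genes that DESeq2 called were Nkd2 and Sfrp4 on the higher side and Wif1 on the lower.

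Inhibitors lay on either side. Nkd2, the paralog of Nkd1 and likewise a Dishevelled inhibitor gene, was at 16.5 and 17.8 CPM unirradiated and at 43.0 and 27.9 CPM irradiated. It was highest in irradiated 1, unlike Nkd1 (log2 fold change 1.05, SE 0.24, edgeR adjusted p = 0.489, DESeq2 adjusted p = 0.0215). Wif1, which encodes a secreted Wnt-binding protein, had 22.04 and 20.5 CPM unirradiated and 6.56 and 9.54 CPM irradiated (log2 fold change -1.40, SE 0.24, edgeR adjusted p = 0.489, DESeq2 adjusted p = 0.0015). Apcdd1, a membrane inhibitor gene that is also a Wnt target, had 1.49 and 2.89 CPM unirradiated and 4.59 and 9.22 CPM irradiated, with a log2 fold change of 1.66 (SE 0.53). Of 11 tested secreted and membrane inhibitors 6 lay above and 2 below, at a median log2 fold change of 0.65. Sfrp4 was at 2.55 and 1.95 CPM against 2.93 CPM in irradiated 1 and 26.0 CPM in irradiated 2, so its difference was in the library with high fibroblast markers, whose part was not tested.

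Ligands and receptors were read next. Of 12 tested ligand and secretion genes 6 lay above and 1 below, at a median of 0.48. Among the 6 was Wnt10b, with 0.385 and 0.472 CPM unirradiated and 1.01 and 1.01 CPM irradiated. Both unirradiated values were under 0.515 CPM, the filter's minimum level, so it passed only through the irradiated libraries. Wnt10b could hardly lie other than above, and no conclusion is drawn from its place there. Wnt11 had 2.502 and 2.36 CPM unirradiated and 4.59 and 8.74 CPM irradiated. Wnt5b, a ligand best known outside the beta-catenin route, had 83.9 and 89.0 CPM unirradiated and 71.8 and 67.4 CPM irradiated. Rspo1, the R-spondin gene among the tested ones, had 0.866 and 0.885 CPM unirradiated and 2.17 and 1.87 CPM irradiated. Of 16 Frizzled and co-receptor genes 3 lay above and 2 below (median 0.06), with Fzd1 having 24.2 and 22.3 CPM unirradiated and 31.8 and 36.0 CPM irradiated. Fzd9 had 8.85 and 8.49 CPM unirradiated and 4.94 and 4.96 CPM irradiated. None of these passed edgeR.

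The lists of the intracellular core had medians near 0. Of 15 genes of Dishevelled and the destruction complex 5 lay above and 1 below (median 0.04), and Tnks, the tankyrase gene whose product marks Axin for degradation, had 47.3 and 51.8 CPM unirradiated and 62.2 and 54.2 CPM irradiated. Of 11 other Tcf factors and co-factors 2 lay above and 0 below (median 0.07). Tcf7l1, mainly a repressor, had 9.82 and 11.4 CPM unirradiated and 13.6 and 20.7 CPM irradiated. The co-repressor gene Tle4 had 26.6 and 28.2 CPM unirradiated and 33.6 and 32.4 CPM irradiated. Of 8 tested genes among the other known targets 3 lay above and 1 below (median 0.05). Procr, which endothelium also expresses, had 1.25 and 1.06 CPM unirradiated and 1.77 and 13.1 CPM irradiated, with the high value again in irradiated 2. Tnfrsf19 had 30.0 and 32.4 CPM unirradiated and 16.8 and 25.9 CPM irradiated.

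**Figure D4:**
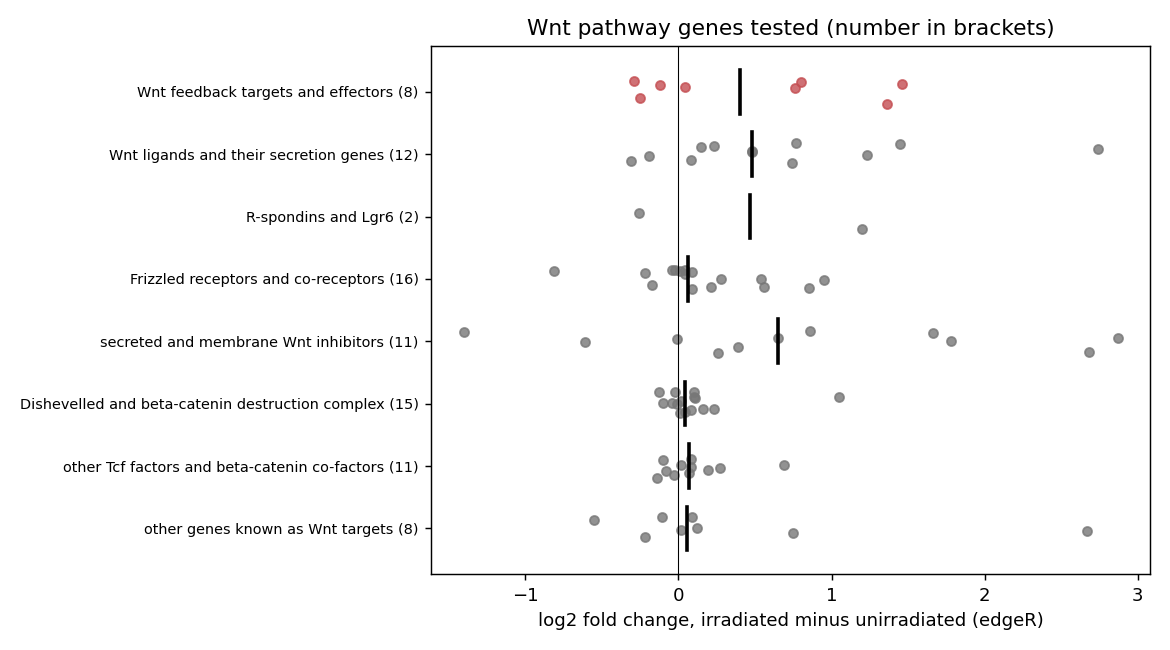
Log2 fold change (irradiated minus unirradiated, edgeR) of each tested gene in the Wnt lists, 1 point per gene, with the number tested in brackets and the median as a black bar. The feedback genes, in red, run from -0.29 for Lgr5 to 1.46 for Lef1 around a median of 0.40, while the destruction complex genes lie near 0 apart from Nkd2. Medians are higher for the inhibitors (0.65), the ligand list (0.48) and the R-spondins and Lgr6 (0.47, 2 genes tested). Those of the remaining lists are 0.04 to 0.07.

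The genes whose pattern over the 4 libraries was most like that of Axin2 were sought among 12377 genes with an average log2 CPM of at least 1, leaving out predicted genes. The measure was the Euclidean distance between log2 CPM values after subtraction of the unirradiated mean. Il1rl2, the interleukin-36 receptor gene, was nearest, at a distance of 0.173, with 4.91 and 5.07 CPM unirradiated and 12.5 and 14.02 CPM irradiated. Tnc, the tenascin C gene, followed at 0.227, with 24.8 and 25.3 CPM unirradiated and 56.2 and 76.1 CPM irradiated, and Tmem200b at 0.23, with 2.41 and 3.07 CPM unirradiated and 5.55 and 7.68 CPM irradiated. With 4 libraries such likeness is a description only.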

How the data were processed

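The files deposited by the authors hold unnormalized read counts for each gene, and gene lengths in bases. STAR 2.5, HTSeq 0.6.1, DESeq2 and the mm10 build are named per the submitters' processing notes, with annotation release and counting options not given in the sources used here. Per the labels' protocols, the poly(A) libraries were non-directional. The table of all 4 libraries matched the 3 single tables at all 54532 genes. Of the gene IDs, 98.3% of the 54495 found in GENCODE M21 had the same position.

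Groups and replicate numbers come from the titles. Counts were fitted with edgeR 4.0.16 in R 4.3.3: filterByExpr (minimum count 10, minimum total 15) kept 15993 genes, TMM scaling was used, and the quasi-likelihood test was two-sided with Benjamini-Hochberg adjustment and a threshold of 0.05. CPM are TMM-normalized; log2 CPM used a prior count of 2. For 2 against 2 libraries the smallest two-sided exact permutation p is 0.333. The members and lists were chosen with earlier results of these data known. Named were all members, Dll1, in each other Wnt list the 2 tested genes with the smallest p, and the 3 genes most like Axin2; Sfrp4 was added after its values were seen. Alternatives were 3 other scalings, 2 other filters, a replicate block, each library left out, limma-voom 3.58.1, DESeq2 1.42.0 and a threshold of 0.1. The fit was tested on simulated data. Marker lists not named in the report (pericyte, B cell, neutrophil, red cell, adipocyte, salivary gland and skeletal muscle) are in the plot of marker lists. Promoter windows are from RefSeq.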

Additional observations from a re-analysis of the deposited data

How the results depend on the processing

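The number of genes called depended on the tool, the filter and the libraries. Against 0 higher and 0 lower, edgeR without a filter called 1338 of 27538 genes higher and 105 lower. DESeq2 called 450 higher and 50 lower of 16326 genes. Without a filter edgeR called 1 member higher (Axin2, adjusted p = 0.0118), with 9 other Wnt genes higher and 1 lower; DESeq2 called 1 member higher (Axin2) and 2 other Wnt genes higher and 1 lower. With the replicate number as a block edgeR called 2 genes higher and no member. Same-numbered libraries deviated with a correlation of -0.0992 over 15993 genes. With 2 libraries per group this single value cannot show whether the numbers pair the libraries. The main fit had no block. Leaving out a library gave 0 to 2713 genes higher and 0 to 2355 lower, 0 to 3 members higher, 0 to 1 lower, 0 to 17 other Wnt genes higher and 0 to 12 lower. The upper ends came without irradiated 1 or irradiated 2, where the lone irradiated library is assumed to vary like the unirradiated pair. Without irradiated 1 the members called were Axin2, Tcf7 and Nkd1 higher and Rnf43 lower, and without irradiated 2 Axin2 and Lef1 higher. With any 1 library left out, 2 to 3 members lay below the unirradiated libraries, against 1 with all 4, and 3 to 4 above, against 3. Groups of fewer libraries separate more easily, and the share over all tested genes was not counted for these sets. No conclusion about the members is drawn from these counts. The 3 other scalings, the stricter filter, limma-voom and the threshold of 0.1 called no gene. Lgr4 changed sign without unirradiated 1 (-0.01) and without irradiated 1 (-0.14), within a range up to 0.17 when libraries were left out, and Nkd1 without irradiated 2 (-0.10), within a range up to 1.30. The log2 fold change of Axin2 stayed between 1.22 and 1.49 over its 12 alternatives, and that of Lef1 between 1.10 and 1.74. The cause of these changes was not tested, beyond the fewer libraries and other gene sets of those fits. Depth limits Lef1, Nkd1, Notum and Sp5, which rest on 55 counts or fewer per library. It also limits Lgr5, which had 35 to 60 counts per library.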

Other observations

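Some pathway genes were close to silent in these cells. Of the 5 genes of the R-spondins and Lgr6, Rspo2 and Rspo4 had 0 counts in all 4 libraries and Rspo3 had at most 3 counts in any, which leaves Rspo1 as the R-spondin gene measured above that level. Among the 21 ligand and secretion genes, Wnt3a and Wnt8b had 0 counts throughout, and Wnt3 and Wnt8a had at most 3 in any library. The inhibitor genes Dkk1, Dkk4 and Sost had 0 counts in all 4 libraries. The floor of 3 counts, the one-sided 95% limit for a count of 0, is 0.144 to 0.177 CPM at these depths and covers counting error only.

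The sums of the marker lists not given in the text were, like that of the fibroblast list, highest in irradiated 2, though not for each gene. In the order unirradiated 1, unirradiated 2, irradiated 1 and irradiated 2, the summed CPM was 45.8, 46.5, 41.1 and 227 for 7 pericyte genes and 6.16, 5.07, 17.7 and 68.3 for 6 B cell genes. It was 4.76, 5.96, 9.79 and 87.1 for 6 neutrophil genes and 2.02, 4.01, 5.85 and 34.9 for 5 red cell genes. For 5 adipocyte genes it was 3.66, 4.48, 3.78 and 83.6, for 9 salivary gland genes 98.5, 96.7, 190 and 639, and for 6 skeletal muscle genes 2.45, 1.95, 3.99 and 11.4. Fabp4 alone gave 81.8 CPM of the adipocyte sum in irradiated 2, where Lep had 0 counts. Of the salivary gland list, Bhlha15 (76.5, 71.9, 34.9 and 48.0 CPM) and Prol1 (5.82, 5.84, 0.202 and 2.67 CPM) lay below in both irradiated libraries. Myh1 and Myh4 of the muscle list were highest in irradiated 1, at 0.656 and 0.202 CPM.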
